A study of Homo sapiens with 8 samples.

Results

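TAZ binding without doxycycline (Dox) was compared with TAZ binding after 72 h of TAZ-4SA expression, using the 2 TAZ peak lists of these conditions out of 4 deposited lists. In ChIP-seq an antibody pulls down a protein with its bound DNA, and a TAZ binding peak marks where such fragments exceed the local background. The list without Dox held 2431 peaks and the list at 72 h held 38667, which is 41098 of the 55334 peaks in all lists. A peak without Dox was matched when it shared at least 1 bp with a peak at 72 h, and its partner was the overlapping peak with the most shared bases. By this rule 2172 peaks (89.3%, exact 95% interval 88.1 to 90.5) had a partner, and 2166 of them on chromosomes 1 to 22, X and Y are described here.

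All libraries came from MCF10A, a non-transformed human mammary epithelial line, transduced with a tet-inducible TAZ-4SA. The cells were left without Dox or received 0.05 µg/ml Dox for 72 h, and each condition had 1 library made with a TAZ antibody. The control cells carried the construct too, so endogenous TAZ and any TAZ-4SA made without Dox cannot be told apart in their list. An IgG library of each condition carries the same list in its labels, and the sources used here do not say whether it served as the control in peak calling. With 1 library per condition no difference between conditions could be tested, and every interval given below covers counting error or the spread over peaks only.

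TAZ is a transcriptional co-activator that the kinases of the Hippo pathway keep out of the nucleus. TAZ-4SA carries serine to alanine changes at sites these kinases use. TAZ has no DNA-binding domain and reaches chromatin through partners, above all the TEAD factors, often at sites where AP-1 factors bind nearby. ETS factors form a separate family, and their sites are frequent in the promoters of housekeeping genes.

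Several sequences are shown to give the motif copies at the strongest risers and at some of the strongest fallers. The TEAD letters searched were ACATTCC or GCATTCC, and the 5 peaks below are among the 6 of the 12 strongest risers with a copy within 100 bp of the 72 h summit. Capitals mark the copy nearest that summit, and any further copy stays in lower case.
NUAK2: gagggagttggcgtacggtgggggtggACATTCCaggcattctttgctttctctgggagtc
ALDH1L1: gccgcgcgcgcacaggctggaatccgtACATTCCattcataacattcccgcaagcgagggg
CBX7: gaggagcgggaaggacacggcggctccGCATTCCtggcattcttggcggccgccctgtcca
VSIR: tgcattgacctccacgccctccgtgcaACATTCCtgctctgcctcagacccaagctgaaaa
PKP4: gtgcattcctcGCATTCCtgcacaatctg

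On hg38 these stretches lie at chr1:205301577-205301637 (plus strand, beyond the end of NUAK2), chr3:126267478-126267538 (plus strand, by the start of a non-coding gene upstream of ALDH1L1), chr22:39176323-39176383 (plus strand, upstream of CBX7), chr10:71766909-71766969 (plus strand, in an intron upstream of VSIR) and chr2:158458180-158458208 (minus strand, at the start of PKP4). The centre of the copy was between 6 and 33 bp from the 72 h summit. The ETS letters searched were CCGGAAGT. Within 100 bp of the summit without Dox they lay at 201 of 2166 matched peaks. In the highest of 5 classes by fold enrichment without Dox, they lay at 108 of 433 peaks. Of the 12 strongest fallers, all in that class, 3 held such a copy, here in capitals.
ZNF580: tcggagcatcCCGGAAGTcgtcactgcg
VPS25: gaagcgaaggCCGGAAGTccttagccgg
EXOSC3: ccgctgcacgCCGGAAGTggcagctgaa

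They lie at chr19:55634981-55635008, chr17:42773420-42773447 and chr9:37800776-37800803, all on the plus strand and at the start of the named gene. AP-1 was searched as TGACTCA or TGAGTCA. All motifs were searched on both strands, and the letters of TEAD and ETS can share 2 bases where they abut. In windows of 201 bp centred on 20033 start sites of protein-coding genes, TEAD letters were present in 3.52%, AP-1 letters in 2.62% and ETS letters in 4.51%.

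Depth differed between the lists and was read from the peaks, since read totals were not in the files. The number of fragments piled up at a summit and the local background there were solved from the deposited fold enrichment and p-value. The genome-wide background was 1.49 fragments without Dox and 2.01 at 72 h, a ratio of 1.35 (unrounded backgrounds), which was used to scale pileups. The peaks covered 1.53 Mb without Dox and 37.2 Mb at 72 h. The median pileup per list was 20 and 32 fragments.

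Sites already held without Dox carried more TAZ at 72 h, over wider intervals, with summits close to where they had been. Median fold enrichment, the authors' ratio of pileup to local background, was 5.76 without Dox and 11.8 at 72 h at the matched peaks. The median of the ratios between both lists was 1.86 (95% interval of the median 1.75 to 1.98), with quartiles of 1.06 and 3.59. The ratio was 2 or more at 47.5% of matched peaks and below 1 at 22.4%. The change was therefore uneven, with a large group of risers and a smaller group of fallers.

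Pileups, which were solved from the same fold enrichments and p-values and are no second measurement, gave the same picture. Scaled for genome-wide background, the median pileup ratio was 2.12, and the 95% counting interval of a single peak lay above 1 at 58.5% of peaks and below 1 at 8.17%. The local background at the summits rose by a median factor of 1.67, more than the genome-wide background. Where a match required that both intervals share at least 50% of their length, which leaves out peaks that widened more than 2-fold, 35.8% of peaks without Dox had a partner, and the median ratio was 1.14 over all and 2.18 at distal peaks, with a width ratio of 1.40 and a shift of 39 bp.

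**Figure D1:**
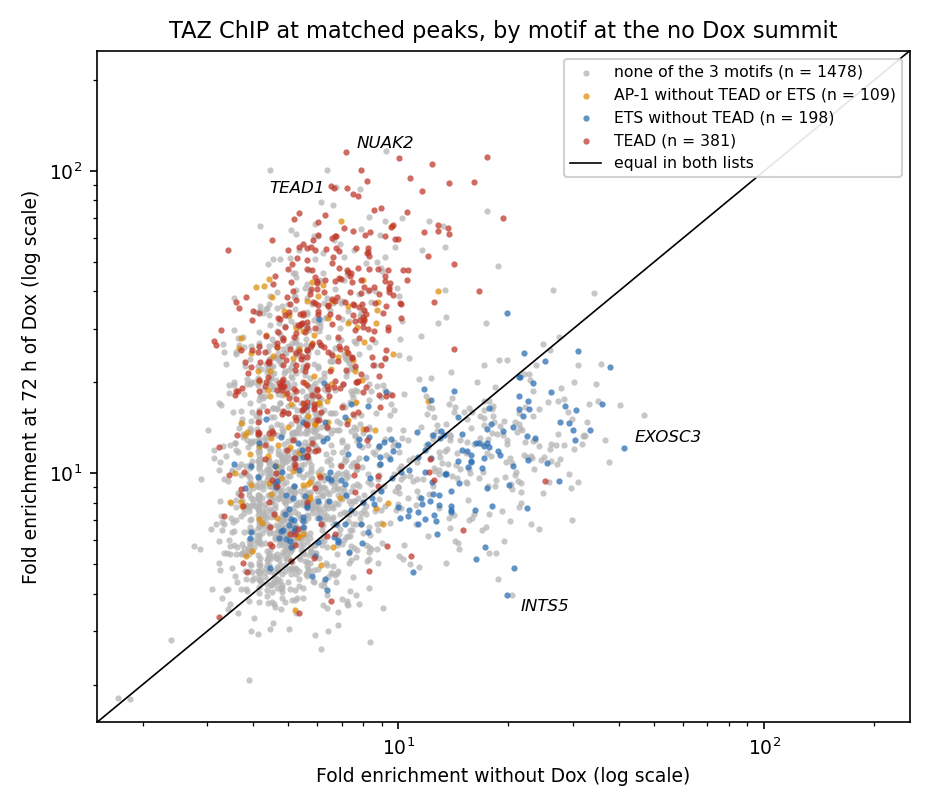
Fold enrichment without Dox (x axis) against that at 72 h (y axis), both on log scales, for 2166 matched peaks coloured by the motif within 100 bp of the summit without Dox. Peaks with TEAD letters lie mostly above the line of equal values, while peaks with fold enrichment above 10 without Dox, many with ETS letters, lie mostly near or below it.

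The order of the peaks was only loosely kept. Across matched peaks, the Spearman rank correlation between fold enrichment without Dox and at 72 h was 0.205 (n = 2166), 0.396 at distal peaks (n = 509), 0.395 at peaks with TEAD letters (n = 381) and 0.428 at peaks with ETS letters (n = 201). These values describe peaks of 1 library pair that share background and sequence composition.

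The rise was larger away from promoters than at promoters. Promoter peaks, with a summit within 3 kb of an annotated transcription start site (TSS), had a median ratio of 1.498 (1.44 to 1.55, n = 1636), which became 1.03 (0.98 to 1.08, n = 711), an interval that holds 1, where 50% overlap was required. The median was 3.95 (3.55 to 4.31, n = 271) in introns, 3.39 (2.95 to 3.83, n = 238) between genes and 4.44 (2.81 to 5.81, n = 21) in exons. Distal peaks, which are those in introns and between genes, went from a median fold enrichment of 5.59 to 21.8, whereas promoter peaks went from 5.88 to 10.3. Both kinds thus started at similar medians and ended apart. Their upper quartiles without Dox differed, with 8.77 at promoters and 6.91 at distal peaks.

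At promoters the ratio also varied with the class of the gene. The median ratio was 1.45 at protein-coding promoters (n = 1323), 1.76 at lncRNA promoters (n = 262), 2.51 at promoters of small RNA genes (n = 20) and 3.59 at those of pseudogenes (n = 21). The interval of the median was wide for small RNA genes, 1.13 to 4.55, and for pseudogenes, 1.31 to 5.26.

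TEAD letters marked the sites that rose most. Fold enrichment at the 381 matched peaks with TEAD letters within 100 bp of the summit without Dox went from a median of 6.02 to 26.5, with a median ratio of 4.41 (4.09 to 4.72). The ratio was 1.53 (1.47 to 1.62) at the 1785 peaks without these letters. Of the TEAD peaks 88.2% had a ratio of 2 or more and 3.41% a ratio below 1, against the 47.5% and 22.4% of all matched peaks. The counting interval of the pileup ratio was above 1 at 91.6% of TEAD peaks, against 58.5% of all.

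AP-1 letters also went with a rise, and adding them to TEAD letters moved the median little. The median ratio was 4.41 at 321 peaks with TEAD alone, 4.58 (3.83 to 5.60) at 57 peaks with both and 2.94 (2.59 to 3.55) at 109 peaks with AP-1 alone. The intervals of the former pair overlapped. RUNX letters, TGTGGTT, marked 70 peaks with a median ratio of 3.58 (2.91 to 4.57), and SP/KLF letters, GGGCGG, marked 944 peaks with a ratio of 1.48. YY1 letters, AANATGGC, marked 95 peaks with a ratio of 1.79, and NFY letters, CCAATNA, marked 105 peaks with a ratio of 2.23, both with intervals that hold the median of all matched peaks. At start sites of protein-coding genes these letters were present in 2.45% (RUNX), 46.9% (SP/KLF), 5.87% (YY1) and 10.5% (NFY) of windows.

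The difference between TEAD peaks and peaks with none of the 3 motifs was present at promoters and at distal sites. Among promoters the ratio was 4.02 (3.52 to 4.34, n = 160) with TEAD alone and 1.45 (1.38 to 1.497, n = 1201) with none of the 3 motifs. Among distal peaks it was 4.90 (4.48 to 5.52, n = 158) with TEAD alone and 3.08 (2.58 to 3.43, n = 261) with none. Position made little difference with TEAD and AP-1 together, 4.43 at promoters and 4.56 at distal sites, and with AP-1 alone the order was turned, 3.39 and 2.73, with overlapping intervals. GC content moved with the ratio as well, but TEAD peaks stood higher in every class of GC content, from 4.81 against 3.32 where GC was under 45% to 3.24 against 1.31 where it was 75% or more. At the highest GC class only 17 peaks held TEAD letters.

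**Figure D2:**
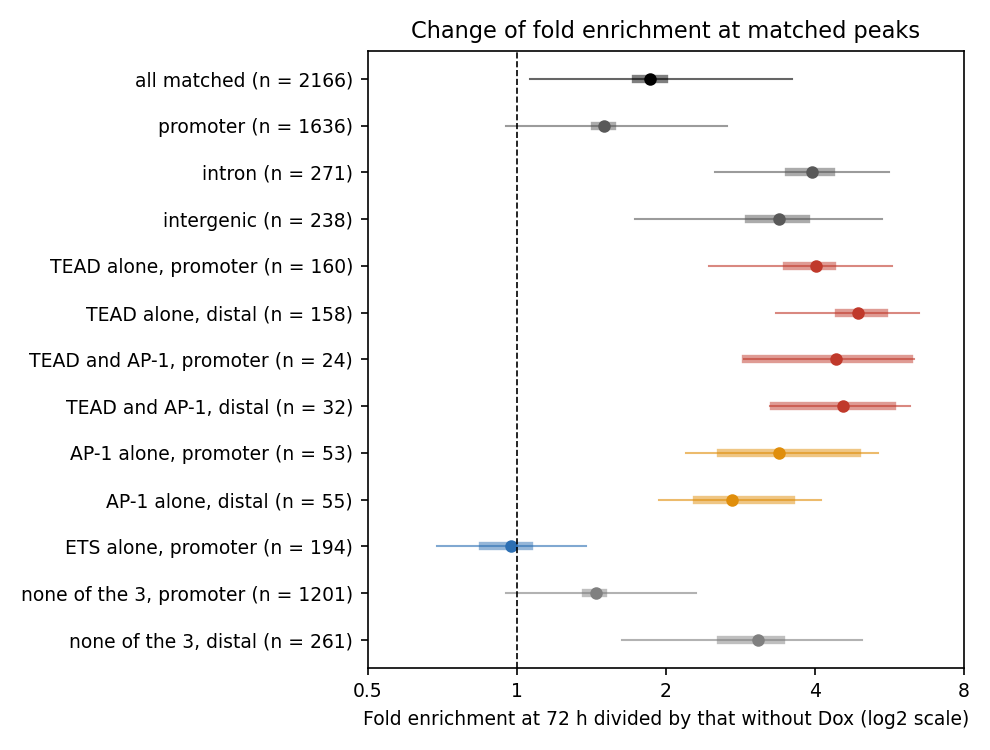
Ratio of fold enrichment at 72 h to that without Dox (x axis, log2 scale) by annotation and motif class (rows), with points for medians, thick bars for 95% intervals of the median and thin lines for quartiles. TEAD classes lie near 4 to 5 at promoters and distal sites, and promoters with ETS letters lie at 0.97, on the dashed line of no change.

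Peaks with ETS letters had a median ratio near 1, with members that went both ways. The 201 matched peaks with ETS letters, of which 198 were promoters, had the highest starting level, with a median fold enrichment of 9.96 without Dox and 10.3 at 72 h. Their median ratio was 0.97 (0.87 to 1.08), below that of promoters with none of the 3 motifs. The scaled pileup ratio was 0.99, and with 50% overlap required the ratio was 0.85 (0.74 to 0.96). The counting interval lay above 1 at 22.9% of these peaks and below 1 at another 22.9%, against 58.5% and 8.17% of all matched peaks.

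The starting level and the ratio are tied, because the value without Dox both admits a peak to the list and divides the ratio. Peaks were therefore also divided into 5 classes of about equal size by fold enrichment without Dox. The median ratio was 2.36, 2.06, 2.22 and 2.03 in the lower 4 classes and 0.78 (0.74 to 0.85) in the highest, where the median fold enrichment went from 14.4 to 12.9. Peaks with TEAD letters had ratios between 4.20 and 5.08 in all 5 classes. In the highest class the ratio was 4.32 (3.57 to 4.74, n = 53) with TEAD letters, 0.71 (0.66 to 0.75, n = 108) with ETS letters and 0.76 (0.71 to 0.82, n = 266) with none of the 3 motifs. TEAD peaks thus had high ratios also in the class with the highest starting level, while peaks with ETS letters and peaks with no motif had overlapping intervals there. Starting levels were not equal within this class. The median fold enrichment without Dox was 10.3 with TEAD letters, 15.8 with ETS letters and 15.6 with none of the 3 motifs. In the lowest class the 9 peaks with ETS letters had a ratio of 2.35 and those with no motif 2.14, and the values of ETS peaks in the 3 classes between, 1.51, 1.52 and 1.203, stood beside 1.81, 1.83 and 1.39 with no motif. Without the highest class the 93 remaining ETS peaks had a median of 1.39, above 1.

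The 12 genes with the highest ratios, taking for each peak the nearest protein-coding TSS within 100 kb, were led by C8orf58, NUAK2 and PLEC. At C8orf58, PLEC, BCL9L and CBX7 the 72 h summit lay 1216, 3923, 1754 and 1428 bp from the summit without Dox in a joined interval, so their ratios compare different places. Their peaks started at fold enrichments of 3.42 to 9.23 and reached 54.7 to 116, and the counting interval was above 1 at all 12. TEAD letters lay near the 72 h summit at 6 of the 12 and ETS letters at 0, beside 23.8% and 9.28% of all matched 72 h summits. At TEAD1, which encodes a DNA-binding partner of TAZ, a promoter peak 23 bp upstream of the TSS had a fold enrichment of 6.76 without Dox and 88.6 at 72 h. Its pileup was 33 and 481 fragments, a scaled ratio of 10.8 (7.61 to 15.9). TAZ enrichment thus rose 13.1-fold at the promoter of its own partner.

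NUAK2, a kinase related to AMPK and a known YAP/TAZ target, had a peak 20206 bp downstream of its TSS with a fold enrichment of 7.21 and 116, and with the highest pileup of the 12 at 72 h, 920 fragments. Its summit moved 50 bp. FZD2, a WNT receptor, had a peak 14181 bp upstream with 6.38 and 101.2. BCL9L, a co-activator of beta-catenin, had a promoter peak with 4.18 and 65.9. All 3 were picked for their high ratio.

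The other risers were spread over promoters and distal sites. VSIR, which encodes the immune checkpoint protein VISTA, had a peak 5027 bp upstream of its TSS with a fold enrichment of 4.52 and 59.0 and a summit shift of 1 bp. PKP4, a plakophilin of cell junctions, had a promoter peak with 6.14 and 79.1. GNA11, a G protein alpha subunit, had a promoter peak with 9.23 and 116. CBX7, a Polycomb protein, had 6.68 and 87.6 at a peak 22254 bp upstream, and CDH4, a cadherin, had 5.09 and 63.6 at a peak 66015 bp upstream. ALDH1L1, an enzyme of folate metabolism, was the nearest protein-coding gene at 69481 bp to a peak with 5.19 and 69.4. C8orf58 and PLEC, which encodes the cytolinker plectin, completed the group with ratios of 22.7 and 16.0, and like BCL9L and CBX7 they lay inside 72 h intervals that take in more than 1 peak without Dox.

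The 12 genes with the lowest ratios were all at promoter peaks, within 272 bp of a TSS, as were 1636 of the 2166 matched peaks within 3 kb and 7 of the 12 risers. They started high, at fold enrichments between 18.5 and 41.5, and stood at 3.97 to 12.1 at 72 h. EXOSC3, a subunit of the RNA exosome, went from 41.5 to 12.1, with 188 fragments without Dox and 101 at 72 h. The scaled pileup ratio was 0.40 (0.31 to 0.51). INTS5, a subunit of the Integrator complex, had the lowest ratio, 0.19, with fold enrichments of 20.5 and 3.97 and pileups of 57 and 30. For both genes the raw number of fragments was lower at 72 h although the genome-wide background was higher.

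MRPL13, a mitochondrial ribosomal protein gene, went from 29.8 to 7.02. VPS25, a subunit of the ESCRT-II complex, went from 20.8 to 4.85. CCDC97, EXD3, HEMK1, GALK2, MAN2C1, CSTPP1 and ZNF580 were also among the 12. The counting interval of the scaled pileup ratio was below 1 at 11 of the 12, and at HEMK1 it held 1 (0.58 to 1.09). The local background at these 12 summits was 1.64 to 3.56 fragments without Dox and 5.41 to 8.58 at 72 h, so part of the lower ratio lay in the divisor, and that part was not tested for its source.

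TAZ intervals were wider at 72 h. Of the matched peaks 93.8% were wider, and the interval without Dox lay wholly inside the 72 h interval at 76.5%. The median width was 591 bp without Dox and 1280 bp at 72 h, with a median ratio of 2.14 (2.09 to 2.21). The width ratio was 2.56 (2.43 to 2.72) at TEAD peaks and 1.501 (1.41 to 1.57) at ETS peaks. Depth differed between the lists, and its part in the widening was not tested.

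Some of the widest intervals joined sites that were separate without Dox. At 72 h 23 peaks took in more than 1 peak without Dox, and 1 of them took in 3. This was the interval over PLEC, 10272 bp wide, where peaks of 488 and 572 bp without Dox were named by the rule, at fold enrichments of 5.36 and 3.42, and the joined peak had 54.7. At DUSP4, a phosphatase that turns off MAP kinases, the interval at the promoter went from 391 to 5953 bp and fold enrichment from 5.27 to 44.7. At PPP1R13L, which encodes the p53 inhibitor iASPP, 2 peaks of 473 and 709 bp fell into an interval of 5280 bp with a fold enrichment of 31.4. GTF2IRD1, encoding a TFII-I family regulator, had an intronic interval of 426 bp without Dox and 4975 bp at 72 h.

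At ARHGDIA the summit passed from a stronger to a weaker site within 1 joined interval. Its peak 273 bp upstream of a TSS had a fold enrichment of 15.7 without Dox, and a second peak 11 bp upstream of another TSS had 3.83. The joined interval of 5467 bp at 72 h had its summit by the weaker site with 9.99, 2886 bp from the summit of the stronger. The 57 fragments at the 72 h summit were 3.85 times (2.0 to 8.15), after scaling, the 11 of the weaker site without Dox, and the list gives no 72 h value at the stronger site.

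Most summits stayed in place. The median absolute shift was 64 bp (58 to 69), 61.3% of summits moved by 100 bp or less, and 14.7% of 72 h summits lay outside the interval without Dox. The shift was 32 bp (28 to 38) at TEAD peaks and 37 bp (28 to 47) at ETS peaks, against 90.5 bp at peaks with none of the 3 motifs. The TEAD value rests on copies near the summit without Dox, and with copies taken near the 72 h summit it was 52 bp (42 to 59). Summits moved by over 1000 bp at 83 peaks (3.83%). TEAD letters lay within 100 bp of the old summit at 6 of these 83 and within 100 bp of the new summit at 24 (28.9%, 19.5 to 39.9). Over all matched peaks the shares were 17.6% and 23.8%. Long moves were at a peak 24699 bp downstream of FRMD8, a partner of the iRhom proteins, with 3478 bp, and YWHAZ, a 14-3-3 protein, with 2585 bp.

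Summits at 72 h lay nearer to TEAD letters than summits without Dox. A copy lay within 500 bp of the summit without Dox at 773 matched peaks. The summit was within 50 bp of the nearest copy at 36.0% of them (32.6 to 39.5) without Dox and at 51.4% (47.8 to 54.9) at 72 h, and the median distance was 99 and 47 bp. At 50 of them no copy was left within 500 bp of the 72 h summit, and these count as farther. The peaks were taken by their distance to the summit without Dox, which favours that summit. At distal peaks the share within 50 bp was 42.1% without Dox and 61.3% at 72 h (n = 323), and at promoters 31.3% and 43.8% (n = 441).

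Other motifs showed less of this approach. For ETS letters the share within 50 bp was 37.9% (32.6 to 43.4) without Dox and 45.7% (40.1 to 51.3) at 72 h (n = 322), for RUNX letters 13.9% and 19.0% (n = 294), and for AP-1 letters 26.3% and 27.9% (n = 452), with intervals that overlap in each case. For NFY letters it was 8.85% and 8.47% (n = 531). TEAD was the only motif with over 100 such peaks, of 9 motifs, whose intervals did not overlap between the lists. Both shares come from the same peaks, so overlap of intervals does not measure the change. The 72 h summit was closer at 463 and farther at 302 peaks for TEAD, 172 and 146 for ETS, and 223 and 221 for AP-1. It was closer at 122 and farther at 169 for RUNX, and 214 and 310 for NFY. The median distance to AP-1 letters was 159 bp without Dox and 114 bp at 72 h.

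**Figure D3:**
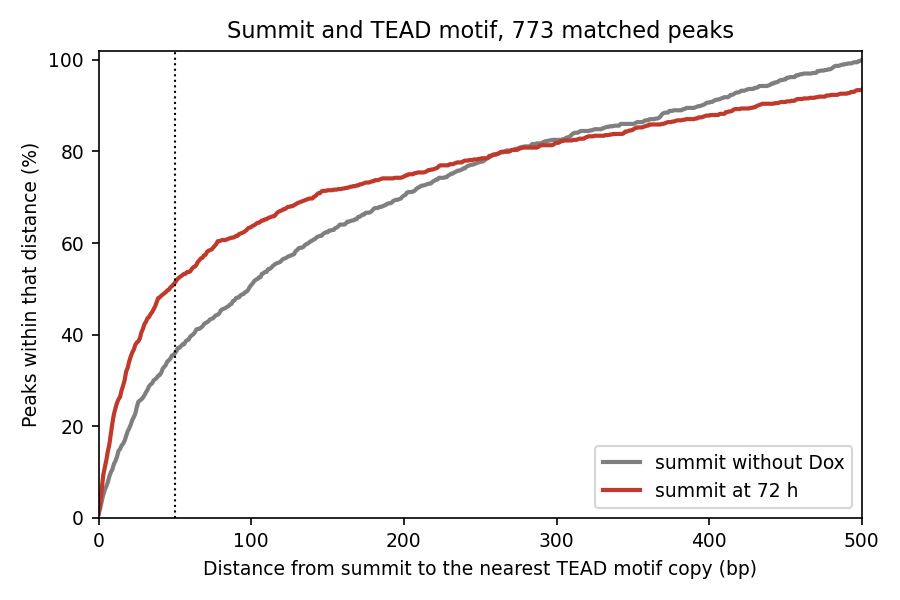
Share of 773 matched peaks (y axis, %) whose summit lies within a given distance of the nearest TEAD motif copy (x axis, bp), with a grey line for summits without Dox and a red line for summits at 72 h. At 50 bp, the dotted line, the share is 36.0% without Dox and 51.4% at 72 h.

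Along genes the summits at promoters showed little common direction. At 52.9% of promoter peaks (50.5 to 55.4) the summit moved upstream, against the direction of transcription, with a median signed move of 6 bp upstream. The summit lay within 100 bp of the TSS at 56.1% of promoter peaks without Dox and at 44.7% at 72 h. At ETS promoters these shares were 87.4% and 70.7%, and at TEAD promoters 26.7% and 25.1%. TEAD promoter peaks were thus mostly away from the TSS already without Dox, and why their share changed less was not tested. Their positions spread too, with quartiles of -471.5 and 360.5 bp from the TSS without Dox and -525 and 433.5 bp at 72 h. At ETS promoters the quartiles were -42 and 4 bp without Dox and -72.75 and 22.25 bp at 72 h.

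New peaks near matched sites went with TEAD letters at promoters and with position. A 72 h peak with no partner lay within 10 kb of the matched summit at 45.1% of all matched peaks (42.9 to 47.2). The share was 57.01% (51.4 to 62.5) with TEAD alone, 68.4% (54.8 to 80.1) with TEAD and AP-1, 49.5% (39.8 to 59.3) with AP-1 alone and 32.5% (26.0 to 39.5) with ETS alone. By position the share was 41.2% at promoters and 56.6% at distal peaks. Among promoters 88 of 160 peaks with TEAD alone (46.9 to 62.9%) and 39.9% (37.1 to 42.7) with none of the 3 motifs had a new neighbour, and among distal peaks the shares were 58.2% (50.1 to 66.0) and 56.3% (50.1 to 62.4). At most 6 new peaks lay within 10 kb of a matched summit.

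Pathway genes were then read by their promoters, a gene being bound where a summit lies within 3 kb of any of its TSS. Of 20007 protein-coding genes 9.42% were bound without Dox and 58.5% at 72 h. Over the 1809 genes with a matched promoter peak the median ratio was 1.38, with 31.6% below 1 and 32.8% at 2 or more. Of the 22 genes of a YAP/TAZ target signature 21 were bound at 72 h, 9 of them in both lists, and the matched ratio of all 9 was above 2, from 3.64 to 9.15 with a median of 5.93.

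CCN1, a secreted matricellular protein, had a fold enrichment of 5.22 without Dox and 38.8 at 72 h, with pileups of 19 and 267. ANKRD1, a transcriptional cofactor of muscle and endothelium, had 5.22 and 30.9. AXL, a receptor tyrosine kinase, had 7.11 and 65.05, the highest ratio of the 9. These classic targets were thus listed before induction, at levels near the median of the list.

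AMOTL2, an angiomotin that holds YAP and TAZ in the cytoplasm, had 8.09 and 61.3, and PTPN14, a phosphatase that restrains YAP, had 12.9 and 63.2. ARHGEF17 had 11.6 and 54.6, and CCDC80, a matrix protein, had 5.64 and 42.3. LATS2, a kinase that phosphorylates TAZ, had 10.1 and 36.7, the smallest ratio of the 9. ASAP1, which switches off Arf GTPases, had 3.95 and 20.1.

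The 12 signature genes bound only at 72 h (54.55%, 32.2 to 75.6) spanned a wide range. The interval of this share holds the 49.2% of all protein-coding genes bound only at 72 h. CCN2, a matricellular protein of the same family as CCN1, reached 37.9 from no listed peak, and CRIM1, a membrane protein that binds bone morphogenetic proteins, reached 24.6. The other 10 lay between 4.13 for IGFBP3 and 10.0 for FJX1, and included NUAK2 with 7.58 at its promoter, TGFB2 with 6.68 and F3, the tissue factor gene, with 6.32. NUAK2 had its strong site 20206 bp away, listed in both conditions. TGFB2 was the nearest gene to an intronic peak with 6.72 and 43.3, and IGFBP3 to a peak with 5.93 and 54.7, both beyond 3 kb and listed in both conditions. FOXF2 was bound in neither list.

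The Hippo pathway itself was bound at 25 of 28 genes at 72 h and at 7 without Dox. The share bound only at 72 h was 64.3% (44.1 to 81.4), an interval that holds the 49.2% of all protein-coding genes. The 7 genes in both lists had a median ratio of 4.91, and AMOTL2, LATS2 and PTPN14 among them were already counted with the signature. WWC2, a member of the KIBRA family of LATS activators, had 6.30 without Dox and 71.5 at 72 h, and its relatives WWC1 and WWC3 reached 40.7 and 18.9 from no listed peak. AJUBA, a LIM protein that inhibits LATS, had 12.1 and 68.4, and its relatives WTIP and LIMD1 reached 101.6 and 12.6 from no listed peak. VGLL4, which competes with YAP and TAZ for TEAD, had 8.01 and 34.8.

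Among the kinases at the core of the pathway and their adaptors, LATS2 had 36.7 at 72 h and the others lower values. STK3, the kinase MST2, was the only 1 of the 7 whose ratio was below 1, with 5.87 without Dox and 5.78 at 72 h. STK4 reached 10.9, LATS1 11.1, SAV1 9.09, MOB1A 6.95 and MOB1B 5.76, all without a listed peak before. YAP1 reached 17.7 and WWTR1, the gene of TAZ, reached 11.9. AMOTL1, VGLL1 and VGLL2 were bound in neither list.

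By the 3 kb rule all 4 TEAD genes were bound at 72 h, TEAD2 only weakly. TEAD4 had 48.0 at a summit 5 bp from its TSS, TEAD3 had 8.94 and TEAD2 had 3.66, none of them listed without Dox, whereas TEAD1 was in both lists. The TEAD2 peak had 22 fragments and a summit 1262 bp upstream of its TSS. The study reports TAZ at the promoters of TEAD1, TEAD3 and TEAD4 but not of TEAD2. Of 11 AP-1 genes 9 were bound at 72 h and 3 without Dox. JUN reached 17.8, FOSL1 15.1, JUNB 8.92, FOS 8.57, FOSB 5.70 and BATF3 5.15 from no listed peak. Outside this window, a matched peak with JUN as its nearest protein-coding gene went from 6.9996 to 37.2. JUND kept its level with 9.15 and 9.05, and ATF3, a stress-induced member, had 4.42 and 9.73. FOSL2 had 3.43 without Dox, and its matched peak had 9.42 with a summit 2363 bp away. BATF and BATF2 were bound in neither list.

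**Figure D4:**
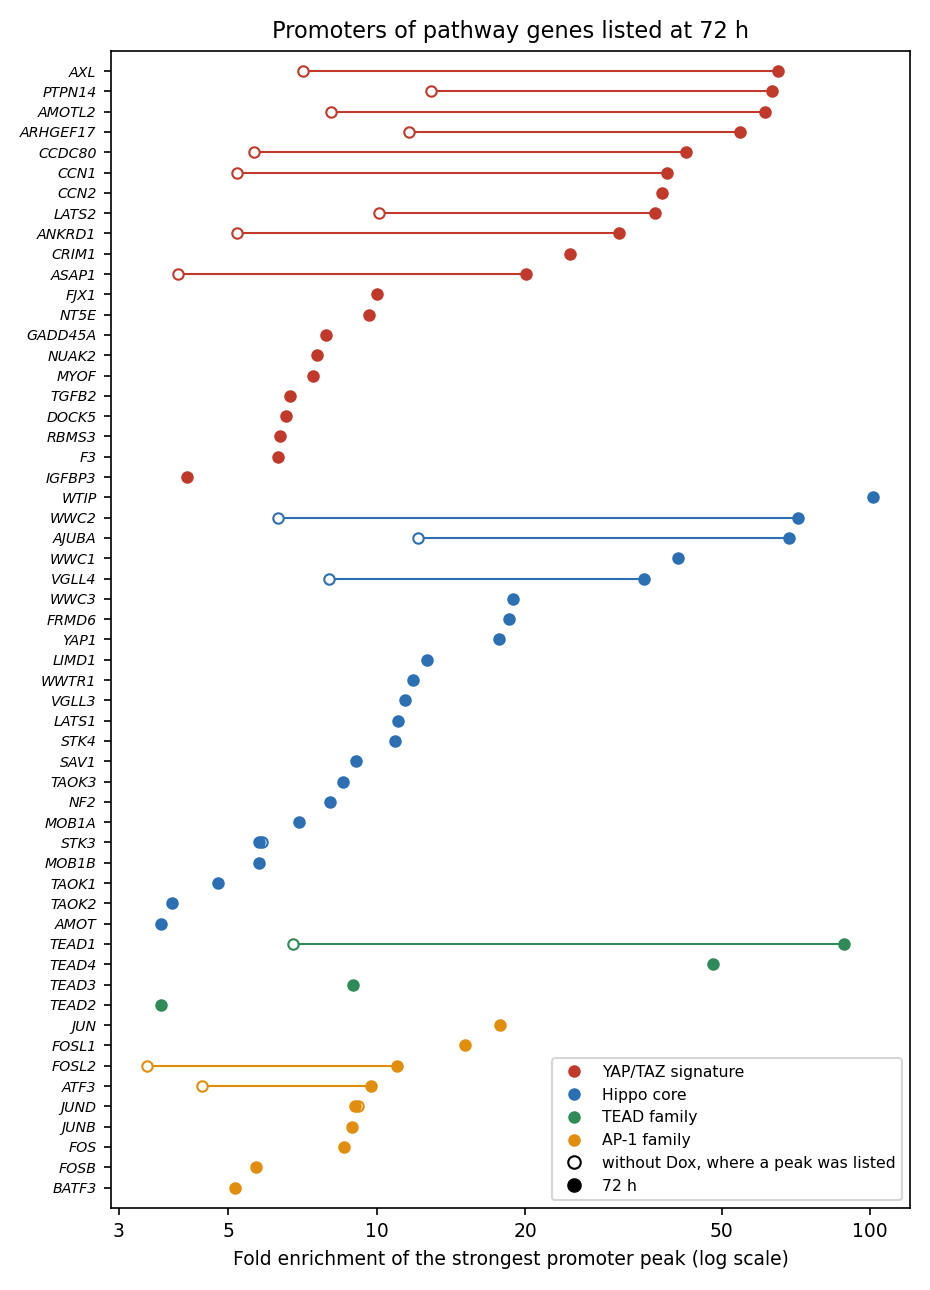
Fold enrichment (x axis, log scale) of the strongest peak within 3 kb of a TSS for signature, Hippo, TEAD and AP-1 genes (rows), with filled points for 72 h and open points, joined by a line, where a peak was listed without Dox. All 9 signature genes in both lists move to the right, while STK3 and JUND stay in place.

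In most other gene lists the median matched ratio lay above the 1.38 of all genes with a matched promoter peak. Cytoskeletal and adhesion genes did, but so did histone (4.64, 3 matched genes), translation initiation (1.997, 4), cell cycle (1.86, 5) and proteasome genes (1.80, 6). Below it lay genes of RNA and mitochondrial protein machinery, ZNF genes, respiratory chain genes (1.18, 8) and the 1 matched amino acid synthesis gene (1.02). Most of these lists had few matched genes, and none was tested or set against its starting level. Among 4 actin and SRF genes the median was 5.08, with 1 below 1, and MYH9, a non-muscle myosin, stood at 5.77 and 40.7 and ACTN1, an alpha-actinin, at 6.25 and 36.5. Among 4 integrin and laminin genes it was 3.42, led by LAMC1, a laminin chain, with 8.82 and 47.3. Among 4 EMT and mesenchymal genes it was 3.61, led by TGM2, a transglutaminase, with 5.84 and 37.0. KRT5, a basal keratin, had 4.18 and 34.6.

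The 21 matched mitochondrial ribosomal protein genes had a median ratio of 0.89, with 14 below 1 and 2 at 2 or more, from 0.24 for MRPL13 to 2.29 for MRPS15. The 8 matched spliceosome genes had the same median of 0.89, with 4 below 1, and the 4 matched genes of the RNA exosome and decay had 0.999. The 58 matched ZNF zinc finger genes had 1.14, with 23 below 1 and 14 at 2 or more. These counts stand beside the 31.6% below 1 over all genes with a matched promoter peak. Cytosolic ribosomal protein genes differed from their mitochondrial counterparts, with a median of 1.97 over 14 genes and 2 below 1. RPL26 stood at 6.28 and 21.5, at a peak with its summit 1986 bp upstream of the TSS at 72 h.

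Genes bound only at 72 h made up 49.2% of protein-coding genes, 9850 in number, while 1846 were bound in both lists, 38 without Dox only and 8273 in neither. They were bound less strongly than genes in both lists, with a median fold enrichment of 6.78 against 10.7, and 24.2% of them had less than 5. At a fold enrichment of 20 or more stood 430 genes. For 29.6% a summit without Dox lay within 100 kb of the 72 h summit, and for 2.40% within 10 kb. With pileups scaled to the background without Dox and 1 threshold for both lists the number was 9485.

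The strongest and the weakest of these genes differed in position and motif. In the strongest 10%, with fold enrichment of 14.5 or more, TEAD letters lay at 40.2% of summits, ETS letters at 2.63%, and 36.8% of summits lay beyond 1000 bp of the TSS. In the weakest 10%, with 4.04 or less, the same shares were 4.26%, 3.95% and 10.1%. The median GC content at the summit was 56.0% in the strongest 10% and 68.2% in the weakest. ETS letters were at 12.7% of the summits of genes bound in both lists and at 5.53% of those bound only at 72 h, and TEAD letters at 14.6% and 14.4%.

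WTIP led the 20 strongest genes bound only at 72 h, with a fold enrichment of 101.6 from 369 fragments at chr19:34480957-34482608. TMEM120B followed with 87.3, TMCC2 with 78.1 and MALSU1, a factor of mitochondrial ribosome assembly, with 71.0. C18orf63 had 70.4 and SERTAD2, a transcriptional regulator, had 69.3. TPRN had 54.3, VAC14, a scaffold of phosphoinositide kinase complexes, 53.9 and ACTN4, an alpha-actinin, 50.7. These genes went from no listed peak to levels above most matched peaks.

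The remaining 11 of the 20 lay between 44.2 and 48.8. They were TNNT2 of cardiac troponin, TMEM130, TEAD4, ATXN10, ZC3H7A, the LIM homeobox gene LHX4, the actin capping gene TMOD3, KLHL5, the POU factor gene POU6F1, the RNA-binding protein gene SAMD4A, and NIBAN2. TEAD letters were at 11 of the 20 summits, AP-1 letters at 1 and ETS letters at 0, and 9 of the summits were beyond 1000 bp of the TSS.

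Against the share of 49.2% over all protein-coding genes, most lists lay higher, and those of olfactory receptor, liver, blood, muscle and neuron genes lower. The intervals of many lists on either side held 49.2%. Among the lower lists only that of olfactory receptors lay wholly below it. The intervals of liver and blood (0 to 52.2 each), muscle (0.51 to 71.6) and neuron genes (5.27 to 85.3), with 5 genes per list, held it. Amino acid synthesis genes were bound only at 72 h in 16 of 18 cases (88.9%, 65.3 to 98.6), led by BCAT1, a branched-chain aminotransferase, with 25.9 and GPT2, an alanine aminotransferase, with 24.1. NF-kB and TNF genes were bound only at 72 h in 21 of 25 cases (84.0%, 63.9 to 95.5), led by TRAF2 with 16.3 and NFKBIA, which encodes the inhibitor IkB alpha, with 15.9. Cell cycle genes had 23 of 30 (76.7%, 57.7 to 90.1), led by the cyclin genes CCND1 and CCND3 with 23.3 and 22.4. Complement genes had 8 of 15 (53.3%, 26.6 to 78.7), an interval that holds the share of all genes, among them C3 with 16.0.

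Actin and SRF genes were bound only at 72 h in 18 of 22 cases (81.8%), with CALD1, TPM1 and TAGLN, which encode actin-binding proteins, at 33.5, 26.2 and 23.9 below ACTN4. TGF-beta and SMAD genes had 17 of 21 (81.0%), with the ligand gene TGFB1 at 26.9 and SMAD3 at 13.8. EMT and mesenchymal genes had 15 of 20, among them THBS1, thrombospondin-1, at 17.8. Epithelial junction genes had 14 of 21 (66.7%, 43.0 to 85.4), led by CGN, cingulin, and CDH1, E-cadherin, with 43.2 at CDH1. Integrin and laminin genes had 14 of 19 (73.7%, 48.8 to 90.85), with ITGA3 at 36.4 and ITGB5 at 30.3. The intervals of the epithelial junction and of the integrin and laminin genes hold the share of all genes.

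Among STAT genes, STAT3 stood at 22.97 and STAT6 at 18.2, and RUNX and STAT genes together had 7 of 11 (63.6%, 30.8 to 89.1). Of 7 EGFR ligand genes 6 were bound only at 72 h (42.1 to 99.6%), with amphiregulin, AREG, at 8.27 and TGFA at 8.12. The intervals of both lists hold the share of all genes. Replication-dependent histone genes had 45 of 69 (65.2%), and neighbouring histone genes shared peaks. Proteasome genes had 24 of 31 (77.4%), translation initiation genes 23 of 29 (79.3%) and respiratory chain genes 62 of 86 (72.1%). Cytosolic and mitochondrial ribosomal protein genes had 67.9% and 65.4%. RNA exosome and decay genes had 11 of 16 (68.8%, 41.3 to 89.0) and spliceosome genes 17 of 28 (60.7%, 40.6 to 78.5). The intervals of the latter 2 lists hold the share of all genes. ZNF genes, with 265 of 508 (52.2%, 47.7 to 56.6), were near the share of all genes.

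Olfactory receptor genes were bound only at 72 h in 12 of 415 cases (2.89%, 1.503 to 4.996) and never without Dox. None of 5 liver and 5 blood genes was bound in either list. Of 5 muscle genes only MYL2 was bound, at 72 h with a summit 2874 bp from the TSS, and of 5 neuron genes SLC17A7 was bound in both lists and SYT1 and SNAP25 at 72 h. Of 8 basal mammary genes 3 were bound without Dox and 7 at 72 h, with TP63 in neither list. Of 7 luminal genes none was bound without Dox and 5 were bound at 72 h, led by KRT18 with 28.0 and KRT8 with 17.9. The KRT18 summit lay 2861 bp upstream of its TSS. Beside these counts, 9.42% of all protein-coding genes were bound without Dox and 58.5% at 72 h. For basal and for luminal genes, the interval of the share bound only at 72 h holds the share of all genes. The counts thus do not set either kind apart from all genes. Peaks do not measure expression, so these counts describe binding only.

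**Figure D5:**
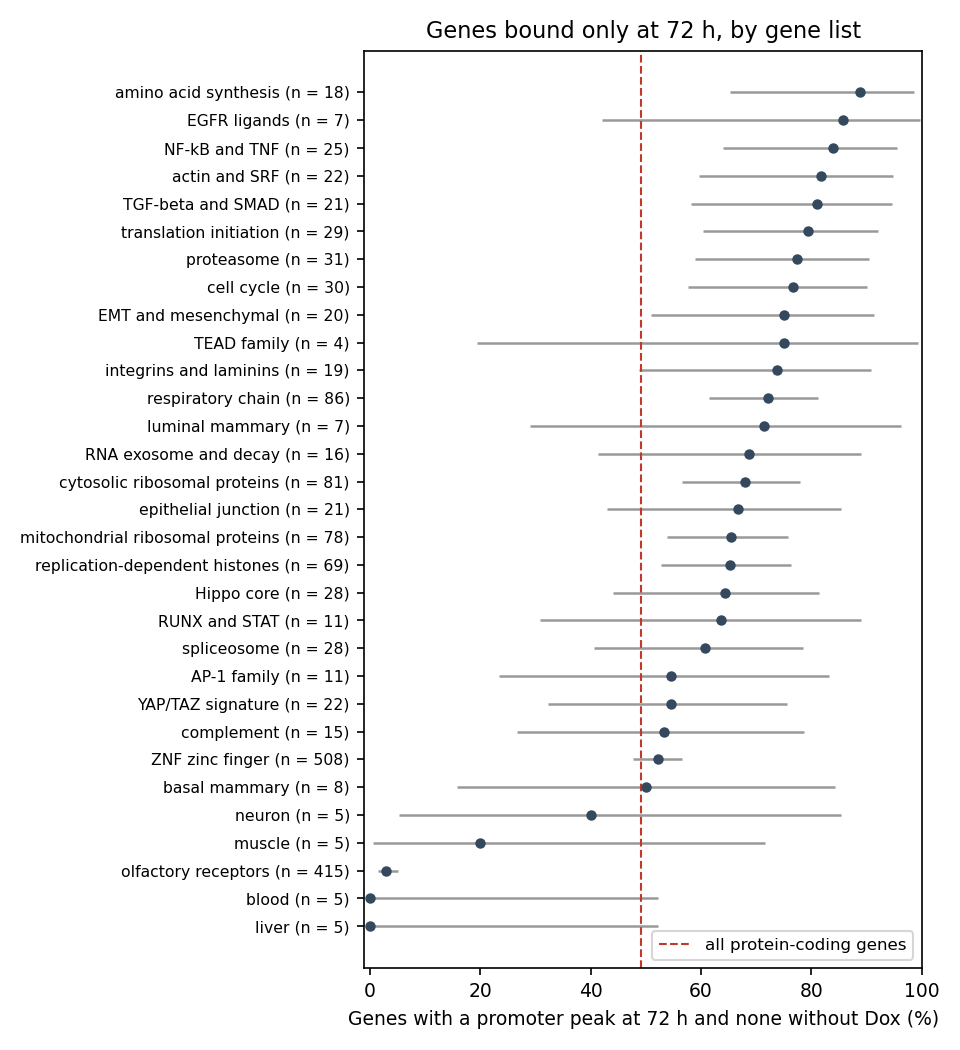
Share of genes (x axis, %) with a promoter peak at 72 h and none without Dox, for 31 gene lists (rows, with the number of genes), with points for shares and bars for exact 95% intervals. The dashed line marks the 49.2% of all protein-coding genes, and olfactory receptors lie at 2.89%.

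A smaller group of sites was listed without Dox only. On chromosomes 1 to 22, X and Y 254 of 2420 peaks (10.5%) had no partner at 72 h, and they were weak, with a median fold enrichment of 4.70 and a median pileup of 12.5 fragments. A −log10 q under 5 was found at 187 of them (73.6%). The share without a partner was 5.32% (4.31 to 6.49) at promoters, 25.8% (21.3 to 30.6) in introns and 21.2% (16.7 to 26.2) between genes. It was 3.54% at summits with TEAD letters and 2.43% at those with ETS letters.

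The share fell from 19.3% in the lowest class of fold enrichment to 1.45% in the highest. The strongest site without a partner was the promoter of DUS1L, a tRNA dihydrouridine synthase, at chr17:82065680-82066379, with a fold enrichment of 34.9 and 100 fragments. The nearest 72 h summit lay 28269 bp away. PLD4 had 18.5, BBS1, a Bardet-Biedl syndrome gene of the cilium, had 15.8, MBTPS2, a membrane protease, had 12.5, and SNRNP27, a spliceosomal protein gene with ETS letters at its summit, had 11.6. All 5 were promoters, and their nearest 72 h summits lay between 20543 and 54393 bp away. The lists hold no signal below the calling threshold, so a missing partner does not show that TAZ was absent.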

How the data were processed

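TAZ ChIP-seq libraries of MCF10A cells with inducible TAZ-4SA, 1 without Dox and 1 at 72 h, were compared through their peak lists. The submitters' processing notes name BWA, MACS2 and hg38, with versions not given in the sources used here, and the study's methods give a false discovery rate threshold of 0.01. The deposited lists hold, per peak, a fold enrichment (a ratio of pileup to local background computed by the authors with MACS2), a deposited −log10 p-value and −log10 q-value, a deposited score, and the summit. Lists at the other times were used only to count peaks.

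Peaks were matched by 1 bp, and the ratio of fold enrichment, the width ratio and the summit shift were computed on chromosomes 1 to 22, X and Y. Read totals were not in the lists, so pileup and background were solved from fold enrichment and p-value, with errors of at most 0.00228 on the −log10 scale. Genes came from GENCODE 44, a promoter reached 3 kb from a TSS, and motifs were searched in 201 bp at the summit in hg38. Intervals are exact (Clopper-Pearson) for shares and pileup ratios and from order statistics for medians, and they cover counting error or the spread over peaks. With 1 library per condition there was no test. Matching and solving were tested on simulated data.

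Named genes were the 12 highest and 12 lowest ratios, the 5 largest width ratios and shifts, the 20 strongest genes bound only at 72 h, the 5 strongest peaks without a partner, and the members of the gene lists. Some genes that this rule names are not reported here. The members and lists were chosen with earlier results of these data known. Other thresholds, overlaps, motif positions and promoter sizes were tried. Software was Python 3.11.15, NumPy 2.4.6, pandas 2.3.3, SciPy 1.17.1, pysam 0.24.0, matplotlib 3.10.9, bedtools 2.31.1 and samtools 1.23.1.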

Additional observations from a re-analysis of the deposited data

How the results depend on the processing

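No paired analysis was possible because each condition had 1 library, and for the same reason no replicate could be left out. With both lists held to −log10 q of 5 or more, the median ratio was 1.68 over all matched peaks, 1.36 without TEAD letters, 1.39 with none of the 3 motifs and 1.32 at promoters, the width ratio was 2.06, the shift 48 bp, the share within 50 bp of TEAD letters without Dox 41.5%, the matched share 95.0% and the unmatched share 5.00%. With 50% reciprocal overlap, the ratio was 1.14 over all, 3.07 with TEAD, 1.05 without TEAD, 2.41 with AP-1, 0.85 with ETS, 1.11 with none, 1.03 at promoters and 2.18 at distal peaks, the width ratio was 1.40, the shift 39 bp (27 bp with TEAD), the shares within 50 bp of TEAD letters 29.7% and 42.7%, the matched share 35.8% and the unmatched share 64.2%. This rule leaves out peaks that widened more than 2-fold by its construction. Without the pseudocount of the peak caller the ratio was 1.71 over all, 3.94 with TEAD, 1.42 without TEAD, 1.45 with none and 1.39 at promoters. With motifs taken at the 72 h summit it was 1.46 without TEAD and 1.49 with none, and the TEAD shift was 52 bp. With promoters of 1 kb it was 1.41 at promoters. Of the alternatives chosen after seeing the data, pileups scaled by genome-wide background gave 2.12 over all, 5.12 with TEAD, 1.79 without TEAD, 4.16 with AP-1, 1.86 with none, 1.74 at promoters and 4.36 at distal peaks. Without the highest of 5 classes of fold enrichment the ratio was 2.18 over all, 1.90 without TEAD, 1.84 with none and 1.39 with ETS letters, on the other side of 1. The cause of these moves was not tested, apart from the construction named. Genes bound only at 72 h numbered 9065 to 9751 under the alternatives tried. Depth limits weak peaks without Dox, where the median pileup was 20 fragments.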

Other observations

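Genes of other kinds were bound only at 72 h less often than the 49.2% of protein-coding genes by the same promoter rule, with 22.9% of lncRNA genes, 16.0% of miRNA genes, 17.5% of snoRNA genes, 9.14% of snRNA genes and 6.04% of processed pseudogenes. These shares carry no test, and small RNA genes that lie inside other genes can take the peak of their host. The 36466 peaks found at 72 h without a partner held TEAD letters at 27.9% and ETS letters at 1.57% of summits, against 23.8% and 9.28% of the 72 h summits of matched peaks. These sets differ in position, with 15246 of the 36466 peaks and 1636 of the 2166 matched peaks at promoters. Among distal peaks TEAD letters lay at 34.7% without a partner and at 37.3% of matched summits without Dox. Among promoters the shares were 18.4% and 11.4%, again with matched summits taken without Dox. Over all matched peaks the summit without Dox gave 17.6% and the 72 h summit 23.8%. The distal and promoter comparisons thus mix the choice of summit with the set of peaks.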
